A study of Homo sapiens with 21 samples.

Results

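The 10 genes described here make serine, glycine and asparagine or belong to the response that switches their synthesis on: PHGDH, PSAT1, PSPH, SHMT1, SHMT2, MTHFD2, ASNS, ATF4, CHAC1 and TRIB3. They were taken by symbol from the array tables of 21 human cancer cell lines, where they are 10 of 37715 genes in the tables of the hepatocellular carcinoma (HCC) lines and 10 of 33959 genes in the table of the lung and pancreatic lines. The lung lines were Calu-1, Calu-3, Malme-3M, NCI-H1299 and NCI-H596. The pancreatic lines were AsPC-1, BxPC-3, Capan-1, Capan-2 and MIA-PaCa-2. The HCC group held 11 lines, Hep3B, HLF, Huh-1, JHH-4, JHH-6, PLC/PRF/5, SK-HEP-1, SNU-423, SNU-475, SNU-739 and SNU-886. All were established lines grown untreated in serum-containing medium, and RNA of each line was read on 1 Illumina BeadChip. The series was built around dependence on the histone demethylase LSD1, a property that was not analysed here.

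Serine is made from a glycolytic intermediate by PHGDH, PSAT1 and PSPH in sequence, and SHMT1 in the cytosol and SHMT2 in mitochondria split it into glycine and a one-carbon unit carried on folate, which MTHFD2 oxidises further in mitochondria. ASNS makes asparagine from aspartate and glutamine. When amino acids run short or unfolded protein accumulates, phosphorylation of eIF2alpha raises translation of the transcription factor ATF4, which activates genes of amino acid synthesis together with CHAC1, a glutathione-degrading enzyme, and TRIB3, a pseudokinase that restrains ATF4. ATF4 mRNA and ATF4 protein are therefore separate quantities, and the arrays measured the mRNA. PHGDH, PSAT1, PSPH, SHMT2, MTHFD2, ASNS, CHAC1 and TRIB3 are known ATF4 targets and are read together below as 8 target genes.

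A level below is a log2 intensity after background correction and quantile normalization. HCC lines were normalized apart from the lung and pancreatic lines, because the groups of tables come from different array designs. Tissue and array design cannot be told apart between them, so no test of HCC lines against the others was made. A level is called at control level where the raw intensity was within 2 SD of the mean of the array's negative controls. Each line was read once, so a p-value here measures the spread between lines only, and neighbouring lines in an order have no error of their own by which to be separated.

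Some arrays stood apart. In Hep3B 24.9% of listed genes were detected and the 95th percentile of signal was 4.78 times background, against 32.6% to 35.1% and 10.1 to 26.4 times in the other HCC lines, so correlations over the HCC lines are also given without Hep3B. The values of SNU-475 came from a table of its own. All 10 hepatocyte markers were detected in Huh-1 and PLC/PRF/5, 5 in Hep3B and in SNU-886, and 0 to 2 in the other HCC lines. At most 1 of 7 lung epithelial markers was detected in any lung line, while 2 to 6 of 7 pancreatic duct markers were detected in the pancreatic lines, against 3 to 5 in lung lines and 2 to 5 in HCC lines, so these counts do not set the pancreatic lines apart. The array labelled Capan-2 had all 6 mesenchymal markers and 2 of 7 duct markers, and the array labelled Malme-3M, a line known to come from a melanoma metastasis in the lung, had 1 of 6 melanocyte markers and all 5 epithelial ones. In the array labelled Calu-3 the epithelial markers CDH1 and ESRP1 were undetected, as they also were in Calu-1 and NCI-H1299. Calu-3, Malme-3M and Capan-2 are left out together in 1 alternative below. Per the labels' protocols the JHH lines were kept in William's E medium and the other lines in DMEM or RPMI1640, with no line named for either. The part of medium in these levels was not tested. Where a gene was at control level in some lines, whether its mRNA was absent or the array failed to read it was not tested, since the sources used here give no probe sequences.

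Among the target genes, ASNS and CHAC1 are known for an ATF4-binding element upstream of the start, and the stretches that hold a match are shown to place it. Promoters came from RefSeq on GRCh38.p14, 250 bases before to 50 after each annotated start, with 8 of the 10 genes matched. No promoter of PSPH or SHMT2 matched, so these targets were not searched. The 8 matched genes include ATF4 and SHMT1 and are not the 8 targets. Both strands were searched for TGATGNAA, the C/EBP-ATF composite element (TTNCATCA on the reverse strand), for CCAAT, the motif of NF-Y, whose reverse is ATTGG, and for an E-box, the palindrome CACGTG. No match of one motif overlapped a match of another. Capitals mark the matches, sequences run 5′ to 3′ on the gene's own strand, and positions count back from the start. The third stretch, from PSAT1, is shown for its repeated CCAAT boxes.
ASNS, chr7:97872409-97872508, minus strand: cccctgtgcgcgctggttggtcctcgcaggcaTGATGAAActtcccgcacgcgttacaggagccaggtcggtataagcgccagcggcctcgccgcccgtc
CHAC1, chr15:40953241-40953470, plus strand: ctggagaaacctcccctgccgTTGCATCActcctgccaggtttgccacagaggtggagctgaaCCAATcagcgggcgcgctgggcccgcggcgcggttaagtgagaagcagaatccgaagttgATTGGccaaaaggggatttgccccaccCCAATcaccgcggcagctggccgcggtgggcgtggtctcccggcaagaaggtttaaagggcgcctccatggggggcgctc
PSAT1, chr9:78296995-78297124, plus strand: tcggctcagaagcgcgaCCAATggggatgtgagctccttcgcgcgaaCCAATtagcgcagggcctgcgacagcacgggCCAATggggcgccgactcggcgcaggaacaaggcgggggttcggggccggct

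The composite element began 68 bases before the start in ASNS and 209 bases before it, on the reverse strand, in CHAC1. It was found in these 2 of the 8 matched genes and in 3.62% of 35116 promoter windows of the same length. CCAAT was found in 5 of the 8 genes, PHGDH, PSAT1, SHMT1, MTHFD2 and CHAC1, and in 34.6% of all windows. PSAT1 and CHAC1 each held 3 copies. CACGTG was found in ATF4 among the 8 and in 7.26% of all windows. The 8 genes held 12 windows between them, so a count of genes and a share of windows are not like measures. These matches describe letters in a window and show no binding.

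PHGDH, the first enzyme of serine synthesis, was detected in all 21 lines. Among HCC lines its level was lowest in SNU-475 at 11.16, had a median of 12.91 and was highest in SNU-739 at 14.37. The lung lines Calu-1, Calu-3, Malme-3M, NCI-H1299 and NCI-H596 had 14.40, 13.31, 13.97, 13.41 and 14.36, against 9.45, 11.97, 12.92, 14.88 and 14.58 in the pancreatic lines AsPC-1, BxPC-3, Capan-1, Capan-2 and MIA-PaCa-2. The lung lines lay within 1.10 of one another, whereas the pancreatic lines spanned 5.43 with AsPC-1 far below the rest, and the groups overlapped. PHGDH averaged 13.89 ± 0.51 in lung lines and 12.76 ± 2.20 in pancreatic lines (SD, n = 5 each), a difference of 1.13 (SE 0.91), which was 0.30 without AsPC-1.

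PSAT1, the aminotransferase of the second step, was at control level in SK-HEP-1 and Hep3B, with raw intensities of 175 and 164. In the other 9 HCC lines its level was 8.92 to 11.71, highest in Huh-1, although its detection p-value was 0.20 to 0.60 over the 11 HCC lines and called it detected in none. In the lung lines, in the order above, PSAT1 was at 10.86, 12.03, 11.39, 12.28 and 13.72, and in the pancreatic lines at 10.82, 10.06, 11.10, 12.13 and 12.79. NCI-H596 was highest and BxPC-3 lowest, and the groups overlapped. The deposited detection p-value of PSAT1 was 0.28 to 0.42 in all 10 of these lines although the raw intensity was 1233 to 13986, so the gene did not enter the tested set. Without the filter on detection the difference between lung and pancreatic lines was 0.68 (SE 0.64, limma adjusted p = 0.997).

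PSPH, which removes the phosphate in the last step, ranged over the HCC lines from 8.30 in SNU-475 through a median of 9.57 to 10.92 in Hep3B, the array with the lowest signal and the only HCC line in which PSPH was not detected (detection p-value 0.27). It was at 10.21, 8.89, 9.77, 10.29 and 12.13 in the lung lines, against 9.15, 8.47, 10.24, 10.61 and 11.38 in the pancreatic lines. NCI-H596 and MIA-PaCa-2 led, as they did for PSAT1, and BxPC-3 was lowest for both genes. The mean was 10.26 ± 1.18 in lung lines and 9.97 ± 1.16 in pancreatic lines, a difference of 0.29 (SE 0.67).

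SHMT1, the cytosolic hydroxymethyltransferase, varied least of the serine, glycine and asparagine enzymes over the HCC lines. Its level there was 8.07 in SNU-739, 8.93 at the median and 10.09 in Huh-1. Its SD of 0.56 was larger than that of only 22.8% of 9959 genes detected in at least 8 HCC lines. Lung lines had 9.83, 10.91, 9.10, 10.06 and 10.85, against 6.78, 8.86, 9.59, 9.11 and 10.53 in pancreatic lines. AsPC-1, the line lowest for PHGDH, was also the lowest for SHMT1. The groups overlapped, with means of 10.15 ± 0.75 in lung lines and 8.97 ± 1.38 in pancreatic lines and a difference of 1.18 (SE 0.64), the smallest p of the tested members (limma unadjusted p = 0.0957). Without AsPC-1 the difference was 0.63.

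SHMT2, its mitochondrial counterpart, was at 8.38 in Hep3B, 12.55 at the HCC median and 13.62 in JHH-4, and the 10 HCC lines other than Hep3B lay between 12.02 and 13.62. The lung lines had 13.98, 13.60, 13.78, 12.74 and 14.37, against 13.22, 12.81, 13.23, 13.39 and 13.41 in the pancreatic lines. In 4 of 5 lung lines SHMT2 was above every pancreatic line, and NCI-H1299 was below them all. The means were 13.69 ± 0.60 in lung lines and 13.21 ± 0.24 in pancreatic lines, a difference of 0.48 (SE 0.30), which was 0.31 without NCI-H596.

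MTHFD2, the mitochondrial folate dehydrogenase that takes up the one-carbon unit from SHMT2, had the widest spread over the HCC lines of the 10 genes. It was at control level in JHH-4, JHH-6, SNU-739 and SNU-886, with raw intensities of 94.0, 91.6, 86.3 and 105. In the other 7 HCC lines it lay between 8.04 in SNU-475 and 12.26 in SK-HEP-1, where the raw intensity was 5158. Of 37715 genes, MTHFD2 alone was at control level in exactly those 4 lines and above it in the other 7. That pattern was taken from MTHFD2 itself. How many other genes have a pattern shared with no gene was not counted, so its being alone carries no weight. In JHH-4, SNU-739 and SNU-886 the other enzymes of the pathway were well above control level, with SHMT2 at 13.62, 13.49 and 12.76. MTHFD2 was above control level in all lung lines, at 11.23, 10.86, 11.85, 12.16 and 13.00, and in all pancreatic lines, at 12.02, 11.36, 11.83, 11.80 and 12.41. The groups overlapped around nearly the same mean, 11.82 ± 0.83 in lung lines and 11.88 ± 0.38 in pancreatic lines, a difference of -0.06 (SE 0.39). Its detection p-value was under 0.05 in 2 lines of each group.

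ASNS, the asparagine synthetase, was at control level in JHH-6, with a raw intensity of 87.1. In the other 10 HCC lines it lay between 9.69 in SNU-475 and 12.63 in SK-HEP-1. Lung lines had 11.65, 10.53, 11.15, 13.17 and 13.65, against 14.22, 9.89, 12.92, 13.73 and 13.12 in pancreatic lines. AsPC-1 was highest of all and BxPC-3 lowest, both of them pancreatic. The mean was 12.03 ± 1.33 in lung lines and 12.78 ± 1.69 in pancreatic lines, a difference of -0.75 (SE 0.87).

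ATF4 mRNA lay between 11.30 in JHH-6 and 12.79 in JHH-4 in the HCC lines other than Hep3B. In Hep3B it was at control level, at 5.46 with a raw intensity of 187, although its detection p-value was 0.03. The lung lines had 13.17, 12.33, 12.34, 13.00 and 13.80, against 13.59, 12.21, 12.83, 13.40 and 12.92 in the pancreatic lines. The range over these 10 lines was 1.59, and NCI-H596 and AsPC-1 were at the top. The means were 12.93 ± 0.62 in lung lines and 12.99 ± 0.54 in pancreatic lines, a difference of -0.06 (SE 0.36).

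CHAC1, the glutathione-degrading enzyme, was dim in every HCC line, from 4.50 in Hep3B through a median of 5.58 to 6.38 in SK-HEP-1, and was at control level in Huh-1, Hep3B and PLC/PRF/5. In the lung lines it was at 5.89, 5.00, 5.13, 7.34 and 10.31, and in the pancreatic lines at 9.57, 5.25, 5.92, 6.67 and 6.71. Calu-3, Malme-3M, Calu-1, BxPC-3 and Capan-1 were at control level, while NCI-H596 and AsPC-1 stood more than 2 log2 units above every other line. The means were 6.73 ± 2.21 in lung lines and 6.82 ± 1.65 in pancreatic lines, a difference of -0.09 (SE 1.10).

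TRIB3, the pseudokinase, was at 8.43 in Hep3B, 10.11 at the HCC median and 12.43 in JHH-4. The lung lines had 11.39, 9.80, 11.60, 11.12 and 15.06, against 13.97, 10.15, 11.74, 12.46 and 11.76 in the pancreatic lines. NCI-H596 and AsPC-1 led again, and Calu-3 and BxPC-3 were lowest. The means were 11.80 ± 1.95 in lung lines and 12.02 ± 1.38 in pancreatic lines, a difference of -0.22 (SE 0.96).

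**Figure D1:**
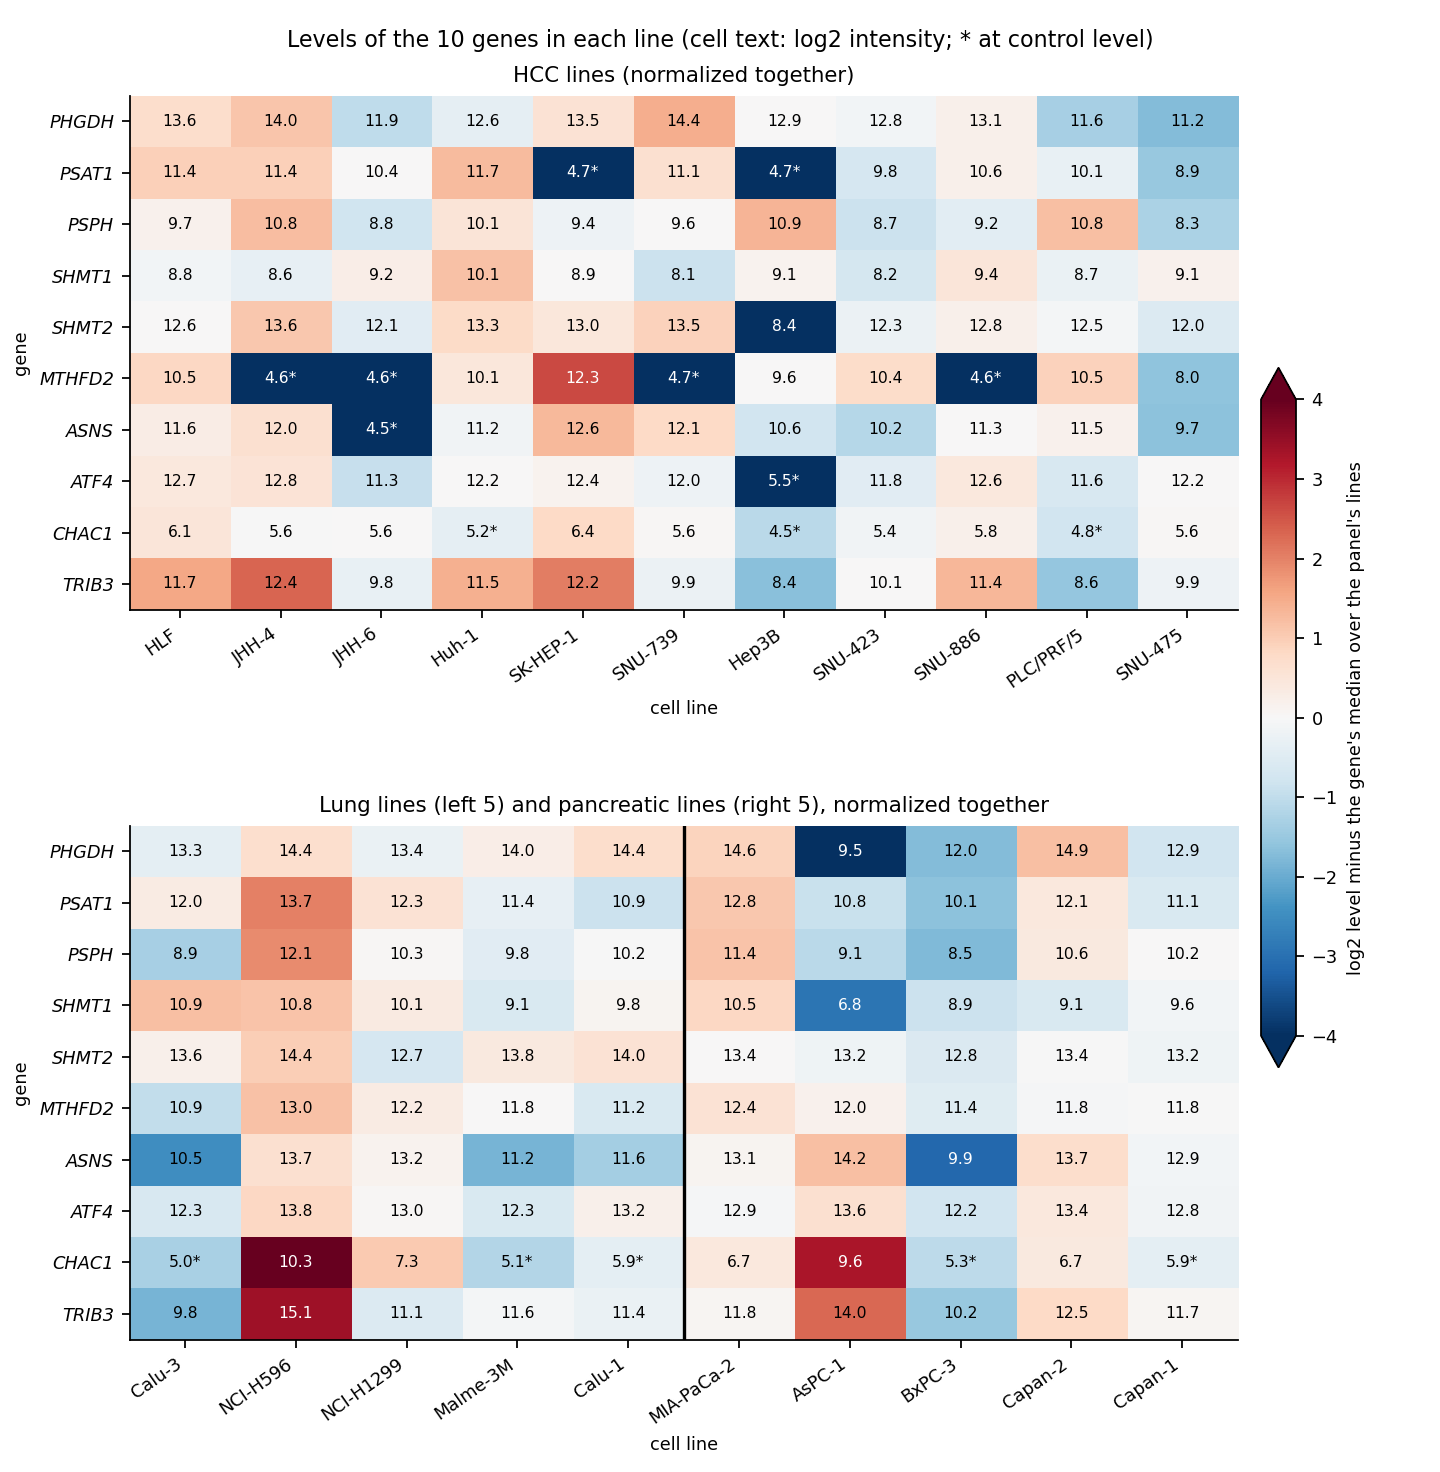
Each cell gives a gene's log2 intensity in 1 line (rows genes, columns lines, upper panel HCC, lower panel lung then pancreas), and its colour the distance from that gene's median over the panel, with an asterisk at control level. MTHFD2 is at control level in 4 HCC lines and PSAT1 in 2, while NCI-H596 and AsPC-1 hold the highest CHAC1 and TRIB3 of the lower panel.

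The comparison of lung with pancreatic lines asked whether these genes differed between the groups as labelled. Because the lung group holds Malme-3M, it is not a test of tissue of origin. No member passed an adjusted p of 0.05 in limma: 0 of 9 tested, where 1 of 16824 genes (0.00594%) did. At an unadjusted p under 0.05 the count was 0 of 9, against 3.63% of all genes tested, and with limma's trended robust prior it was also 0 at the adjusted threshold. The adjusted p was 0.9998 for each of the 9. The lung and pancreatic lines overlapped for all 10 members, and 0.618% of all genes tested did not overlap. Of the 9 differences 4 were above 0, with a median of -0.06, and over all genes tested the median was 0.00. On simulated arrays of the same 16824 genes the test recovered 63 of 100 genes changed by 2 log2 units and 83 of 100 changed by 4, with 8 false calls. The largest member difference, 1.18, was below both sizes, so a p that missed the threshold here does not show that the groups are alike. The simulated noise was drawn independently for each gene, and the changed genes were picked at random. These rates therefore need not hold for the members, of which ASNS, PHGDH, TRIB3 and CHAC1 had an SE of 0.87 to 1.10.

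**Figure D2:**
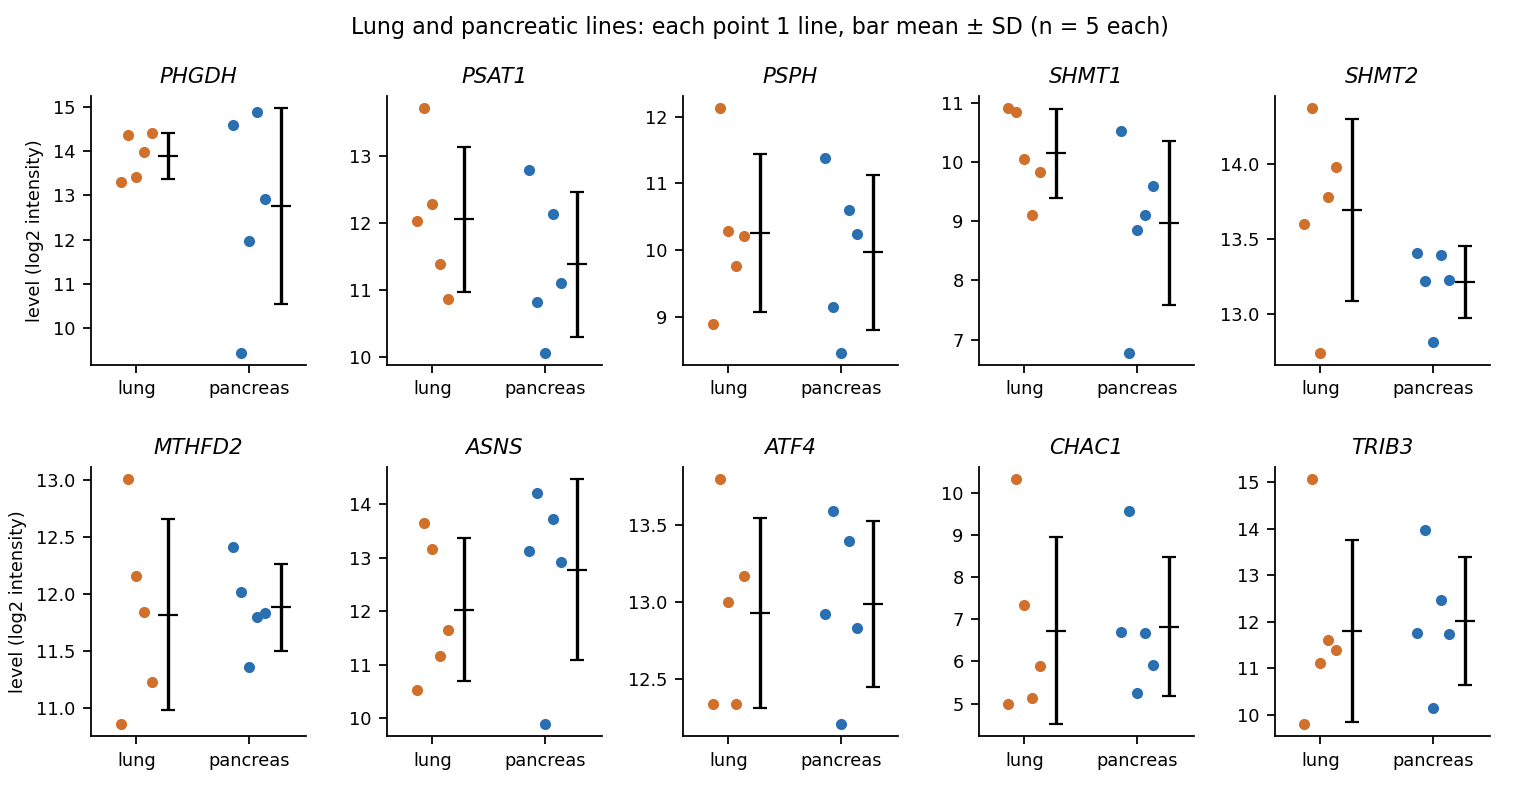
Log2 intensity of each of the 10 genes (1 panel each, every panel with its own axis) in the 5 lung lines and, to their right, the 5 pancreatic lines, with the mean and SD as black bars. The points of both groups overlap in every panel, and PHGDH is spread over 5.43 log2 units in the pancreatic lines against 1.10 in the lung lines.

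The members' spread differed between the panels of lines. Over the HCC lines MTHFD2 had an SD of 2.98, larger than that of 99.6% of 9959 genes detected in at least 8 HCC lines. MTHFD2 itself was detected in 5 and so lies outside that set, which leaves out genes detected in few lines. That share is therefore not like for like. PSAT1, ASNS and ATF4 followed MTHFD2 with SDs of 2.51, 2.22 and 2.07. All 4 genes had lines at control level, which for ATF4 was Hep3B alone. Of 12900 genes above control level in at least 6 HCC lines, 937 (7.26%) spanned over 6 log2 units, and these 4 members were among them. Without Hep3B 431 genes (3.34%) did, and PSAT1, MTHFD2 and ASNS remained. Over the lung and pancreatic lines no member spanned 6 units, against 3.51% of 14852 genes. The widest there were CHAC1 with an SD of 1.84, PHGDH with 1.62, TRIB3 with 1.60 and ASNS with 1.49. Each was larger than that of 93.9% to 96.8% of 12042 genes detected in at least 8 of these lines. CHAC1, detected in 5 of the 10 lines, lies outside that set. SHMT2 at 0.50 and ATF4 at 0.55 were below the set's median of 0.56.

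Read together, the target genes had a higher median correlation with one another over the lung and pancreatic lines than over the HCC lines, a difference that was not tested. The 28 pairs of the 8 targets had a median Pearson's r of 0.52 over the 10 lung and pancreatic lines, with 25 pairs above 0 (89.3%). All pairs of 12042 genes there had a median of 0.006, with 50.7% above 0. Over the 11 HCC lines the median of the target pairs was 0.19, also without Hep3B, with 18 pairs above 0 (64.3%). All pairs of 9959 genes there had a median of 0.007, with 50.5% above 0. These gene sets were detected in at least 8 lines of their panel, which leaves out PSAT1, MTHFD2 and CHAC1. Each point in these correlations is 1 array read once, and all points of a panel share its array design and normalization. Restricted to lines in which both genes were above control level, a choice made after the data were seen, the HCC median was 0.50 and the other 0.53. The median over lung and pancreatic lines was 0.35 without NCI-H596 and 0.71 without AsPC-1.

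**Figure D3:**
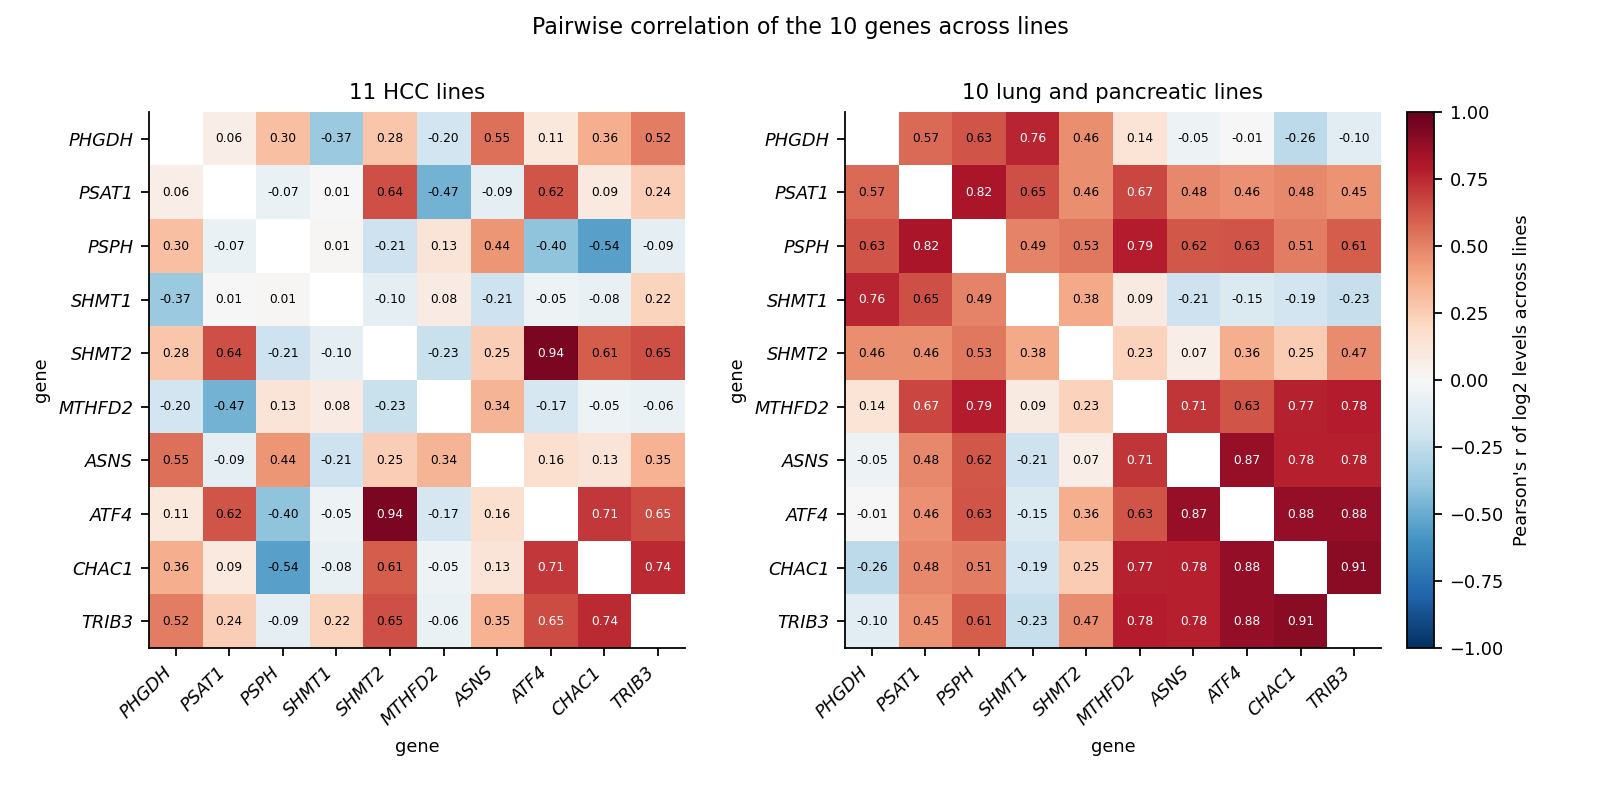
Pearson's r between the log2 levels of each pair of the 10 genes, over 11 HCC lines on the left and 10 lung and pancreatic lines on the right, with colour and cell text giving r. ASNS, ATF4, CHAC1 and TRIB3 form a block with r of 0.78 to 0.91 on the right, where PHGDH has r of -0.26 to -0.01 with these 4.

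Over the lung and pancreatic lines the 8 targets differed in how they followed ATF4 mRNA. ATF4 had r = 0.88 with TRIB3 (Spearman's rho 0.81), 0.88 with CHAC1 and 0.87 with ASNS (rho 0.89), named here because they were the highest. It had r = 0.63 with PSPH and with MTHFD2, 0.46 with PSAT1, 0.36 with SHMT2 and -0.01 with PHGDH. CHAC1 was at control level in 5 of the 10 lines, whose values have no order among themselves, so no rank correlation is given for it. The lowest r on leaving out any 1 line was 0.83 for TRIB3, 0.82 for CHAC1 and 0.83 for ASNS. Without NCI-H596 and BxPC-3, the lines farthest from the ATF4 median, r was 0.78 for TRIB3 and 0.82 for CHAC1. CHAC1 and TRIB3 had r = 0.91, and 0.55 without NCI-H596 and AsPC-1, so that value rests in part on those lines.

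Among the serine enzymes, PSAT1 and PSPH, consecutive steps of the pathway, had r = 0.82 (rho 0.83), with 0.69 as the lowest value leaving out 1 line and 0.51 without NCI-H596 and BxPC-3. PSPH and MTHFD2 had r = 0.79 (rho 0.69). Both also followed the other targets, MTHFD2 with r = 0.78 for TRIB3, 0.77 for CHAC1 and 0.71 for ASNS, and PSPH with 0.61 for TRIB3, 0.51 for CHAC1 and 0.62 for ASNS. PHGDH had r = 0.63 with PSPH and 0.57 with PSAT1, but -0.01 with ATF4, -0.05 with ASNS and -0.26 with CHAC1. AsPC-1 sets PHGDH apart here, since it had the lowest PHGDH and the highest ASNS of the 10 lines. Leaving out 1 line brought r of PHGDH with ATF4 as high as 0.68 and with ASNS as high as 0.63. PHGDH and SHMT1 had r = 0.76, which was -0.13 without AsPC-1 and BxPC-3 and so rests on those lines.

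**Figure D4:**
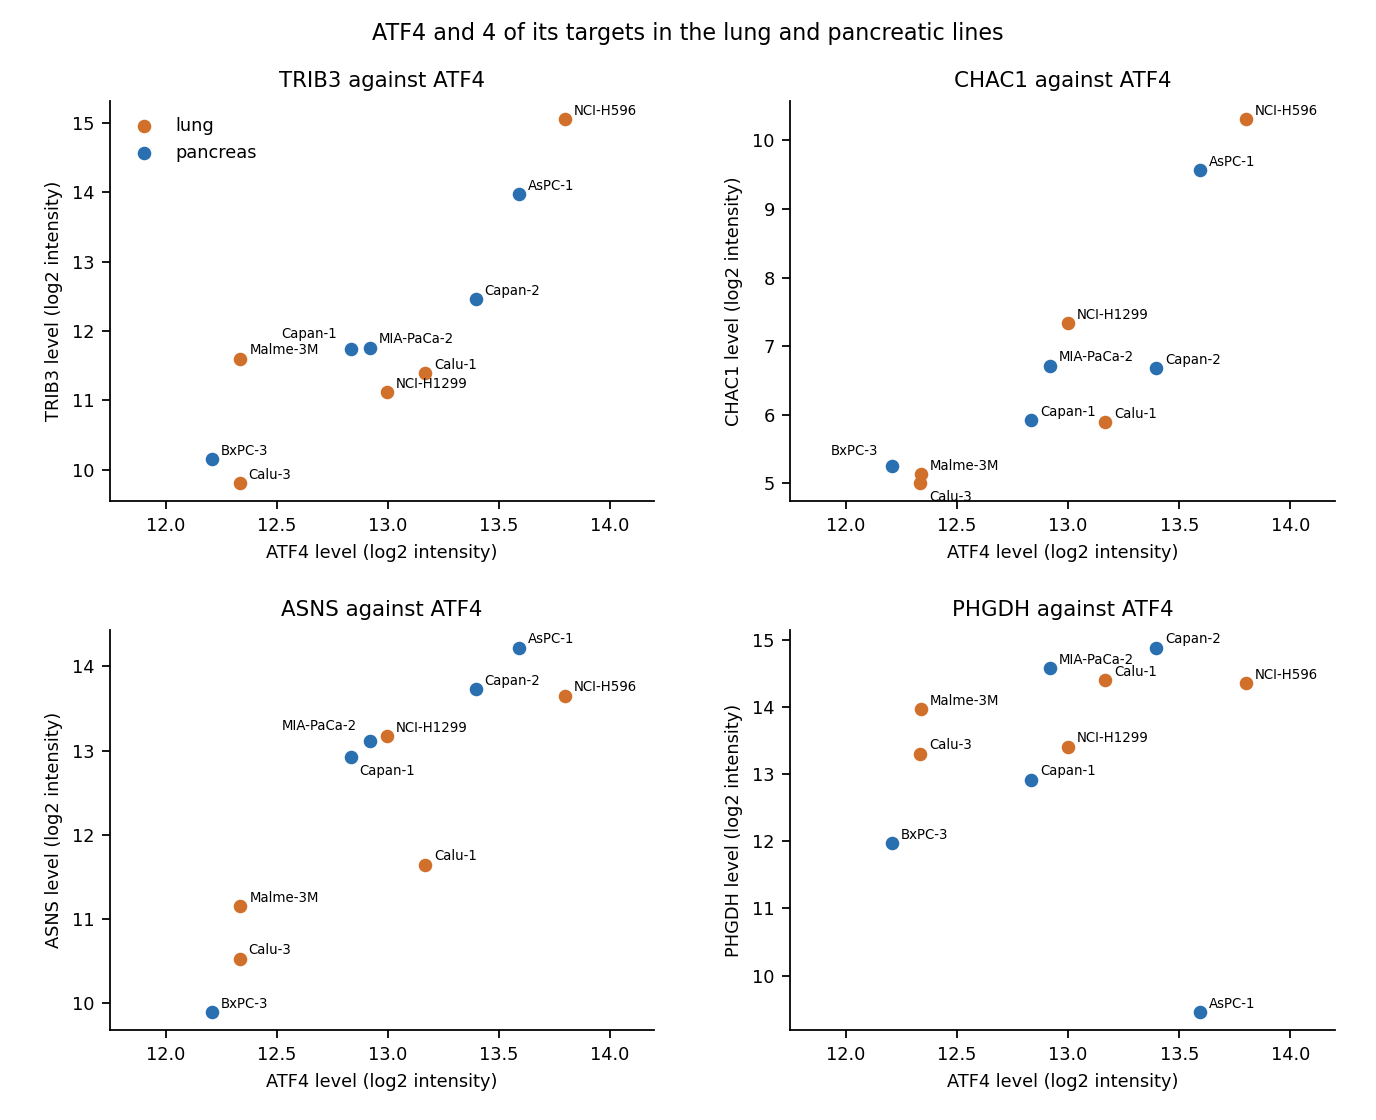
Log2 intensity of TRIB3, CHAC1, ASNS and PHGDH (vertical axes) against that of ATF4 (horizontal axis) in the lung lines (orange) and pancreatic lines (blue), each point 1 named line. TRIB3, CHAC1 and ASNS are higher in lines with more ATF4 mRNA, with r of 0.87 to 0.88, and PHGDH is not (r = -0.01), with AsPC-1 at 9.45.

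In the HCC lines some of these correlations depended on Hep3B. ATF4 and SHMT2 had r = 0.94, and 0.50 without Hep3B. In the other direction, ATF4 and ASNS had r = 0.16, and 0.66 without Hep3B, and PHGDH and SHMT2 had 0.28, and 0.77 without it. ATF4 with TRIB3 was high either way, at r = 0.65 (rho 0.89), and 0.82 without Hep3B, and ATF4 with CHAC1 had 0.71, and 0.51 without Hep3B. CHAC1 with TRIB3 had 0.74, and 0.64 without Hep3B. MTHFD2 had r between -0.47 and 0.34 with the other targets over the HCC lines, and between -0.48 and 0.34 without Hep3B, against 0.14 to 0.79 over the lung and pancreatic lines. PSPH and CHAC1 had r = -0.54 over HCC lines, and -0.36 without Hep3B, against 0.51 over lung and pancreatic lines. Of the 11 HCC lines MTHFD2 was at control level in 4 and CHAC1 in 3, and ASNS was so in JHH-6. Raw CHAC1 intensity was only 111 to 245 over these lines. Values at control level have no order, so the HCC correlations of these genes rest in part on such readings.

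A joint level was taken in each line as the mean of the 8 targets' z-scores, each scaled over the lines of its panel. Among the HCC lines it was highest in JHH-4 at 0.61, HLF at 0.60 and SK-HEP-1 at 0.49, and lowest in SNU-475 at -0.55, JHH-6 at -0.77 and Hep3B at -0.78. HLF had all 8 targets above their means, and JHH-4 had all but MTHFD2. Among the others the lung line NCI-H596 stood at 1.59, with 8 of 8 targets above their means, followed by the pancreatic lines MIA-PaCa-2 at 0.51 and Capan-2 at 0.34. The pancreatic line BxPC-3 was lowest at -1.19, with 0 of 8 targets above the mean, and Calu-3 was next at -0.71. AsPC-1 was in the middle at -0.03 with targets that parted, as the mean z of ASNS, CHAC1 and TRIB3 was 1.34 there, while PHGDH was at -2.39. No joint level was tested between groups. Readings at control level, which have no order, enter these means. In JHH-6 they were ASNS and MTHFD2, with z of -2.78 and -1.21, and in Hep3B PSAT1 and CHAC1, with -1.92 each. In JHH-4 MTHFD2 was such a reading, with z of -1.19, and in SK-HEP-1 PSAT1 was, with -1.91. Among the other lines CHAC1 was such a reading in Calu-3, Malme-3M, Calu-1, BxPC-3 and Capan-1. Its z was -0.97 in Calu-3 and -0.83 in BxPC-3. The place of all these lines rests in part on such readings, as do the correlations with the joint level below, in both panels.

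Single members differed in how they followed the other targets. Over the lung and pancreatic lines PSPH had the highest r with the mean z of the remaining targets, 0.90, and MTHFD2 had 0.80, ATF4 0.79, PSAT1 0.77 and TRIB3 0.76. PHGDH had 0.25, which reached 0.66 on leaving out 1 line, and SHMT2 had 0.46, which was -0.02 without NCI-H596. Over the HCC lines TRIB3 was highest at 0.69, ATF4 had 0.63 and SHMT2 0.57, while PSPH had -0.01 and MTHFD2 -0.13. Without Hep3B that order changed: ATF4 had 0.75, PHGDH and SHMT2 0.73, ASNS 0.67, TRIB3 0.62, PSPH 0.44 and MTHFD2 -0.09. SHMT1, not counted among the targets, had -0.10 over HCC lines, -0.05 without Hep3B and 0.30 over the others.

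The genes whose pattern was most like the joint level were found among 8198 genes detected in at least 8 lines of each panel, ranked by the smaller of both correlations. The first 8 were CEBPG, YARS1, CTH, XPOT, RASSF2, EPRS1, RNMT and AARS1. CEBPG, a C/EBP family factor that dimerises with ATF4, had r = 0.76 over HCC lines and 0.76 over the others. YARS1, the tyrosyl-tRNA synthetase, had 0.74 and 0.82 in that order, and CTH, the cystathionine gamma-lyase of cysteine synthesis, 0.78 and 0.71. XPOT, the tRNA exporter, had 0.72 over HCC lines and 0.71 over the others. EPRS1 and AARS1, the glutamyl-prolyl- and alanyl-tRNA synthetases, had 0.68 and 0.65 over HCC lines and 0.79 and 0.76 over the others. Of the rest, RNMT, the mRNA cap methyltransferase, had 0.80 over HCC lines and 0.67 over the others, and RASSF2, a Ras-association protein, 0.70 and 0.75. Without Hep3B the HCC value of the 8 genes was between 0.51 and 0.77. Of these 8 genes, AARS1 and CEBPG were found to hold the composite element TGATGNAA in a promoter window, at 187 and 42 bases before a start. Another window of CEBPG held none. How many of the 8 genes had a window to search was not counted. The element, shown above for ASNS and CHAC1, was found in 3.62% of all windows, and these matches show no binding.

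**Figure D5:**
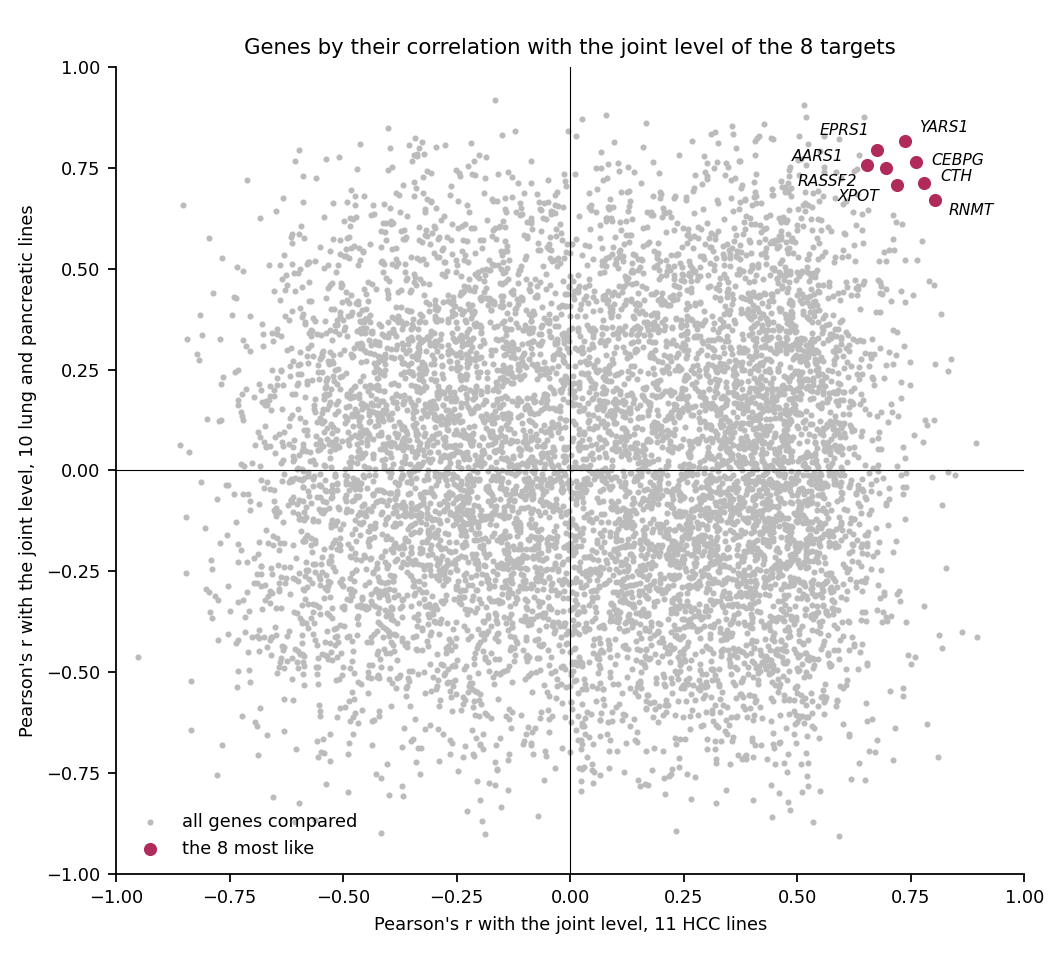
Each point is 1 of 8198 genes, placed by its Pearson's r with the joint level of the 8 targets over 11 HCC lines (horizontal) and over 10 lung and pancreatic lines (vertical), with the 8 most alike genes in colour and named. These 8 lie at 0.65 or above on both axes, and 1.1% of all genes exceed 0.5 on both.

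Pathway lists around the members were read the same way. Of 20 other ATF4 and amino acid response targets with values in both panels, 6 (30%) had r over 0.5 with the joint level in both, as had 6 of 16 cytosolic aminoacyl-tRNA synthetases with XPOT (37.5%), against 90 of 8198 genes (1.1%). These counts include Hep3B, and the lists were chosen with earlier results of these data known. The counts also hold genes already named above, CEBPG and CTH among the targets and YARS1, XPOT, EPRS1 and AARS1 among the synthetases. PCK2, the mitochondrial PEP carboxykinase, had r = 0.65 over HCC lines, 0.87 without Hep3B and 0.88 over the others. The median r of the other ATF4 targets was 0.41 over HCC lines, 0.26 without Hep3B and 0.55 over lung and pancreatic lines, and that of the synthetases 0.45, 0.27 and 0.43 in the same order. The all-gene medians were 0.08, -0.01 and -0.003. Some members of these lists ran the other way in HCC lines: FARSB, a subunit of the phenylalanyl-tRNA synthetase, had r = -0.63 there, -0.54 without Hep3B and 0.38 over the others, and SLC3A2, the heavy chain of amino acid exchangers, had -0.23, -0.41 and 0.61 in the same order.

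Of 14 folate and glycine cleavage genes, which share the one-carbon unit with SHMT2 and MTHFD2, none had r over 0.5 in both panels, a count near the 1.1% of all genes. Their median r was 0.30 over HCC lines, 0.12 without Hep3B and -0.18 over the others. PAICS, an enzyme of purine synthesis, had r = 0.55 over HCC lines, 0.30 without Hep3B and -0.66 over lung and pancreatic lines. Among endoplasmic reticulum chaperones and related genes 1 of 11 exceeded 0.5 in both, XBP1, a transcription factor of the unfolded protein response, at 0.69 over HCC lines, 0.56 without Hep3B and 0.54 over the others. HSPA5, the main chaperone of that compartment, had 0.71, 0.60 and 0.42 in the same order. Of 7 eIF2alpha kinases and regulators 1 exceeded it, EIF2AK1, the haem-regulated kinase, at 0.50 over HCC lines and 0.83 over the others, but its HCC value was 0.22 without Hep3B. EIF2AK4, the kinase that senses uncharged tRNA, had -0.61 over HCC lines, -0.48 without Hep3B and -0.27 over the others. None of 5 aspartate and glutamine genes did.

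Between lung and pancreatic lines none of the genes in these lists passed limma at an adjusted p of 0.05. Over all genes tested 3.63% had an unadjusted p under 0.05. None of the synthetases, the eIF2alpha kinases and regulators or the chaperones had one. It was found for 1 of 28 other ATF4 targets and 1 of 18 folate genes, counts near the all-gene share. The first was STC2, a secreted glycoprotein induced by ATF4, at 12.30 ± 1.76 in lung lines and 6.62 ± 2.12 in pancreatic lines (difference 5.67, SE 1.10, limma adjusted p = 0.864). The second was MTHFD2L, a relative of MTHFD2, at 8.61 ± 0.50 in lung lines and 7.68 ± 0.41 in pancreatic lines (difference 0.93, SE 0.29, limma adjusted p = 0.9998).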

How the data were processed

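Total RNA of each line was read on 1 Illumina array. The authors deposited raw intensity per gene with a detection p-value against negative controls, per the file headers. Per the submitters' processing notes the arrays were processed in BeadStudio; the sources used here give neither its version nor how probes of a gene were summarised. The authors also deposited processed intensity values, used as an alternative. Symbols were updated through RefSeq (GRCh38.p14): of 37879 names listed for HCC lines, 15855 were current and 1887 synonyms, and of 34601 names listed for the other lines, 17590 were current, 3065 matched by accession and 551 as synonyms; the rest stand as listed. For background, limma 3.58.1 (R 4.3.3) applied normexp with an offset of 16, its control mean and SD taken by regressing median intensity on the normal quantile of the detection p-value. This was followed by quantile normalization and log2. A gene was tested where its detection p-value was below 0.05 in 3 or more of the 10 lung and pancreatic lines (lmFit, eBayes, Benjamini-Hochberg). The procedure was tested on simulated data. The number of arrays limits precision. The members, lists and tests were chosen with earlier results of these data known. All 10 members are named; of other genes, the 8 most like the joint level and, per list, from those with the smallest p or highest and lowest correlation. One result of the aspartate and glutamine list is not reported here. Correlations used Python 3.11.15 with pandas 2.3.3. Alternatives varied background, normalization, filter, prior and lines.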

Additional observations from a re-analysis of the deposited data

How the results depend on the processing

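The count of member genes called between lung and pancreatic lines was 0 in limma under all 17 alternatives; without NCI-H1299 or MIA-PaCa-2 1 member had an unadjusted p under 0.05. The count over all genes, 1, became 2 when detection at p under 0.01 was asked of 5 lines, and 3 with Capan-2, Malme-3M and Calu-3 left out together, and was 1 to 4 on leaving out 1 line, highest without BxPC-3, with 3 without Calu-3 and 2 without AsPC-1, Capan-2 or NCI-H1299. PHGDH, SHMT1 and SHMT2 kept their direction under all 17, with 0.30 to 1.66, 0.63 to 1.56 and 0.31 to 0.72 on leaving out 1 line. Uncalled differences changed sign for 6 others. Without those 3 lines the differences were 1.83 for PHGDH, 1.07 for PSPH, 0.23 for MTHFD2, 0.29 for ASNS, 0.43 for ATF4, 0.98 for CHAC1 and 0.62 for TRIB3. CHAC1 was 0.012 without background correction, 0.021 with median scaling and 0.014 with the deposited processed values. Leaving out 1 line gave -0.18 (NCI-H596) to 0.64 for PSPH, with -0.086 without BxPC-3. It gave -0.36 to 0.18 (Calu-3) for MTHFD2, with 0.085 without Calu-1 and 0.069 without MIA-PaCa-2. It gave -0.28 to 0.088 (AsPC-1) for ATF4, with 0.086 without Calu-3, 0.085 without Malme-3M and 0.039 without Capan-2. For CHAC1 it gave -0.99 to 0.59 (AsPC-1), with 0.34 without Calu-3, 0.31 without Malme-3M and 0.12 without Calu-1, and for TRIB3 -1.04 to 0.28 (Calu-3), with 0.27 without AsPC-1. The cause was not tested. The median pair correlation stayed above 0 under every alternative, at 0.14 to 0.50 over HCC lines and 0.35 to 0.71 over the others. The labels give no replicate numbers. No paired analysis was possible, because the lung and pancreatic lines are different lines and none is a partner of another. Reading each line once limits what could be called, and values at control level have no order.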
